A study of Mus musculus with 7 samples.

Results

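Genes of excitatory transmission, 10 in all, were measured by RNA-seq in the mouse cervical spinal cord: the AMPA receptor subunits *Gria1*, *Gria2*, *Gria3* and *Gria4*, the NMDA receptor subunits *Grin1*, *Grin2a*, *Grin2b* and *Grin3a*, and the vesicular glutamate transporters *Slc17a6* (VGLUT2) and *Slc17a7* (VGLUT1). They were found by GENCODE M21 gene symbol and make up 10 of the 55487 genes in the count table. The rule names the genes and sets no threshold on their values, but earlier results of these data were known when the genes were chosen. Libraries came from 8-week-old mice that all carried the hSOD1G93A transgene, a mutant human superoxide dismutase used to model amyotrophic lateral sclerosis. *Neat1*-KO; hSOD1G93A mice (n = 4, replicates 1 to 4) lacked both alleles of the nuclear long noncoding RNA *Neat1*, and *Neat1*-WT; hSOD1G93A mice (n = 3, replicates 2 to 4) kept both. The comparison asks whether loss of *Neat1* was accompanied by a difference in the transcripts of glutamate signalling on this background. Mice without the transgene were not analysed here, so no value separates the effect of the transgene. The labels give no sex, and *Xist* had 0 to 4 counts in every library.

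AMPA receptors are tetramers of the GluA1 to GluA4 subunits encoded by the *Gria* genes, and they carry fast excitatory current. A channel that contains an edited GluA2 subunit passes little calcium, whereas one without it passes calcium, and calcium entry through AMPA receptors is a long-studied route of excitotoxic injury to motor neurons. NMDA receptors need the obligatory GluN1 subunit (*Grin1*) together with GluN2 subunits, which bind glutamate, or GluN3 subunits, which bind glycine and lower calcium permeability. VGLUT2 and VGLUT1 load glutamate into synaptic vesicles. In the spinal cord VGLUT2 is made mainly by local excitatory interneurons, whereas VGLUT1 terminals belong mainly to sensory and corticospinal axons whose cell bodies lie elsewhere.

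The Q/R site of the channel pore is the position at which GluA2 differs from the other AMPA subunits after RNA editing. The enzyme ADAR2 (*Adarb1*) deaminates 1 adenosine of the *Gria2* transcript, which turns a glutamine codon into an arginine codon. The unedited transcript sequences around this codon are shown because several of the subunit ratios described later include *Gria2*. Each run holds 60 bases of a GENCODE M21 transcript, 5′ to 3′, with the Q/R codon in capitals.
Gria1: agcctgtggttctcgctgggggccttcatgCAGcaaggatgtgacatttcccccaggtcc
Gria2: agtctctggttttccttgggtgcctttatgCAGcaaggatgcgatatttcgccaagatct
Gria3: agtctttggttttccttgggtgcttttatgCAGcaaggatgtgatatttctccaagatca
Gria4: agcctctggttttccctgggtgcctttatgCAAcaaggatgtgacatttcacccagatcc
The *Gria2* codon lies in exon 11 at chr3:80706911-80706913 (mm10, minus strand) and encodes residue 607 counted from the first methionine. The corresponding codons were at chr11:57243094-57243096 in *Gria1* (plus strand, exon 11, residue 600), chrX:41610265-41610267 in *Gria3* (plus strand, exon 12, residue 612) and chr9:4464137-4464139 in *Gria4* (minus strand, exon 12, residue 608). All 4 codons are exonic and coding. Over the 60 bases, *Gria3* was identical to *Gria2* at 55 positions, *Gria4* at 52 and *Gria1* at 47. *Gria4* carries CAA where the others carry CAG, and both codons encode glutamine. Gene-level counts do not show how much of the RNA was edited, so editing was not analysed here.

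The libraries held 19661878 to 26031517 counts each. *Neat1* itself (ENSMUSG00000092274, chr19:5824708-5845478) was measured at 5.09, 5.4, 5.52 and 4.04 CPM (counts scaled to the library total and the TMM factor) in the 4 *Neat1*-KO libraries against 86.2, 80.5 and 118 CPM in the 3 *Neat1*-WT libraries, a log2 fold change of -4.25 (SE 0.15, edgeR adjusted p = 1.52e-08). The libraries thus matched their genotype labels. A gene was called when its Benjamini-Hochberg adjusted p in edgeR's quasi-likelihood test was under 0.1 and its log2 fold change was beyond 0.58 in either direction, and 6 of the 18449 genes tested were called (0.0325%). Markers of tissue outside the spinal cord were low but not all absent. The 5 sensory ganglion markers summed to 0.371 to 1.11 CPM in the *Neat1*-KO and 0.543 to 2.24 CPM in the *Neat1*-WT libraries, with *Mrgprd* at 0 or 1 count and *Avil* at 5 to 22 counts a library. The 5 forebrain and cerebellum markers summed to 3.62 to 4.77 and 3.87 to 5.51 CPM, with *Gabra6* at 0 in every library, *Neurod6* at 54 to 90 counts and *Cbln3* at 13 to 35 counts. Summed cervical *Hox* genes were at 169 to 218 CPM and summed lumbar *Hox* genes at 0.769 to 2.47 CPM, which fits the labelled tissue. Because bulk tissue was sequenced, fewer cells of a type and less RNA per cell cannot be told apart in any value that follows.

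None of the 10 genes was called between the genotypes. All 10 passed the filter on low counts, 8 had a lower and 2 a higher estimate in *Neat1*-KO mice, and the median log2 fold change was -0.08, whereas over all genes tested 48.2% had an estimate below 0 and the median was 0.01. The 10 genes were measured in the same 7 libraries, so these directions are not independent and were not tested as a group. With 1 library left out at a time, 6 to 8 of the 10 estimates were below 0 and none was called, and without *Neat1*-KO replicate 1, which was the lowest library in long genes, the numbers were 8 and 0. No member had an unadjusted p under 0.05, which 4.64% of all genes had, and DESeq2 and limma-voom likewise gave 0 members called and 0 with an unadjusted p under 0.05. Without the filter on low counts, 2 members had an edgeR unadjusted p under 0.05, and with 1 library left out up to 3 did. Estimates ran from -0.23 for *Grin2b* to 0.15 for *Gria1*. For every member but *Slc17a7* the 95% interval excluded a log2 fold change beyond 0.58 in either direction, so a change as large as the call requires lay outside what these 9 genes' intervals allow.

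**Figure D1:**
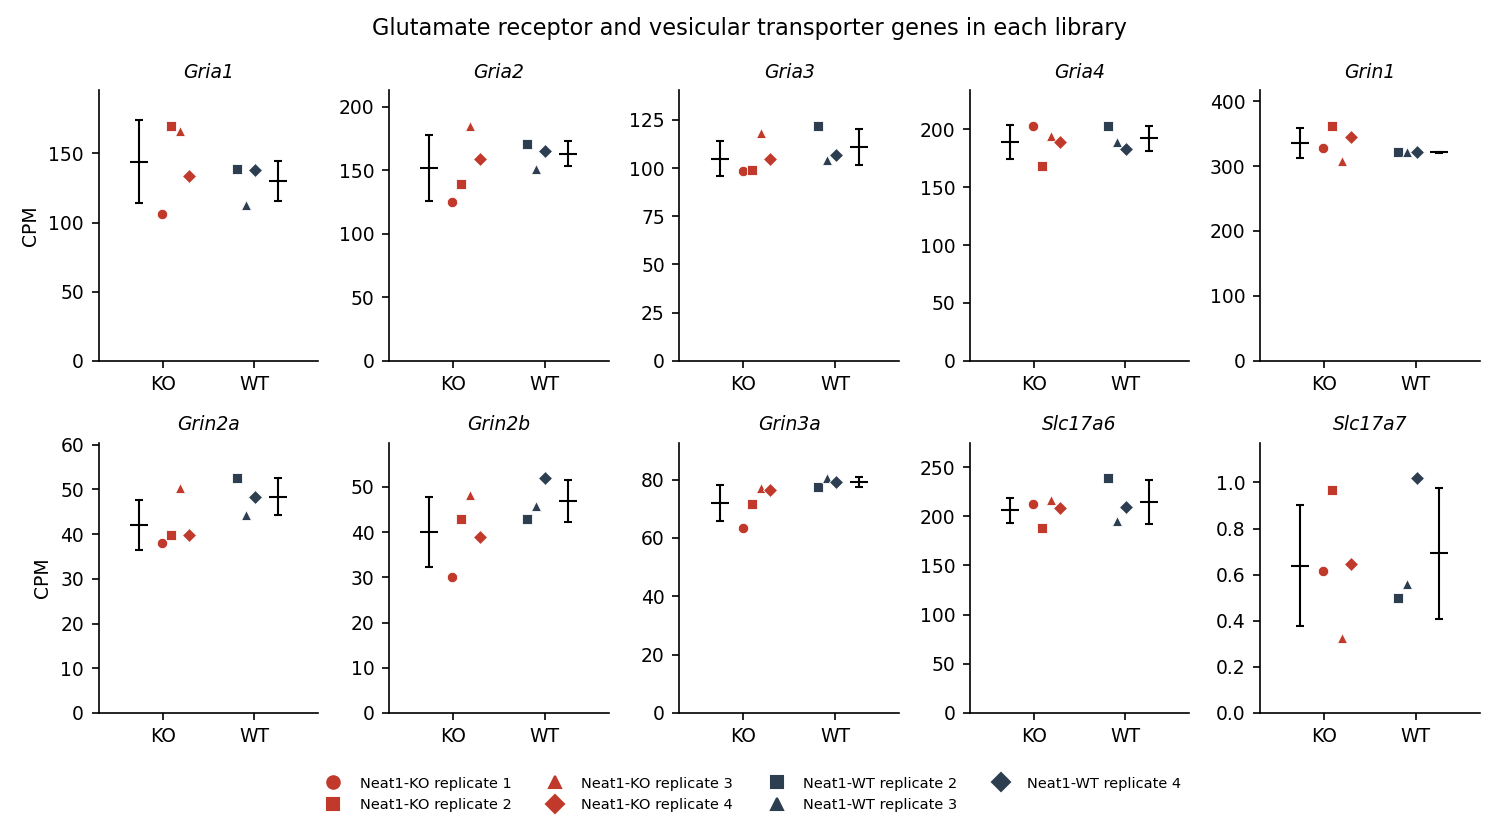
CPM (linear axes from 0) of the 10 genes in each library, 1 panel a gene, with *Neat1*-KO; hSOD1G93A mice in red and *Neat1*-WT; hSOD1G93A mice in dark blue and the replicate number given by the marker shape. Black bars are the mean and SD of each genotype, and the genotypes overlap in every panel except *Grin3a*, where the *Neat1*-KO libraries reach 77.0 and the *Neat1*-WT libraries start at 77.4 CPM.

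*Gria1* (ENSMUSG00000020524, chr11:57011387-57330244, plus strand), which encodes GluA1, was at 106, 170, 166 and 134 CPM in the *Neat1*-KO libraries (given here and after in the order of their replicate numbers) against 139, 113 and 138 CPM in the *Neat1*-WT libraries. The lowest and the 2 highest values were all in *Neat1*-KO mice, so that this genotype enclosed the other. The means were 144 ± 30.1 (SD, n = 4) and 130 ± 14.5 CPM (SD, n = 3), and the log2 fold change was 0.15 (SE 0.14, 95% interval -0.16 to 0.45, edgeR adjusted p = 0.992). *Gria1* had the highest estimate of the 10 genes with all libraries, but single libraries moved it. The log2 fold change was 0.26 without *Neat1*-KO replicate 1 (edgeR unadjusted p = 0.0238), 0.06 without *Neat1*-KO replicate 2, 0.07 without *Neat1*-KO replicate 3 and 0.05 without *Neat1*-WT replicate 3.

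*Gria2* (ENSMUSG00000033981, chr3:80681450-80802835, minus strand), the GluA2 subunit that limits calcium entry, was at 125, 139, 185 and 159 CPM in *Neat1*-KO mice and at 171, 151 and 165 CPM in the *Neat1*-WT libraries. Replicates 1 and 2 of *Neat1*-KO were below every *Neat1*-WT library and replicate 3 was above them all. The means of 152 ± 26 and 163 ± 10 CPM gave a log2 fold change of -0.10 (SE 0.11, 95% interval -0.34 to 0.15, edgeR adjusted p = 0.992). Without *Neat1*-KO replicate 1, in which *Gria2* was lowest, the estimate was -0.02.

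*Gria3* (ENSMUSG00000001986, chrX:41400854-41678601, plus strand) and *Gria4* (ENSMUSG00000025892, chr9:4417896-4796234, minus strand) encode GluA3 and GluA4. *Gria3* was at 98.5, 99.2, 118 and 105 CPM in the *Neat1*-KO and at 122, 104 and 107 CPM in the *Neat1*-WT libraries, with a log2 fold change of -0.08 (SE 0.09). *Gria4* was at 203, 168, 194 and 189 CPM against 203, 189 and 183 CPM, with a log2 fold change of -0.02 (SE 0.08). Both genes overlapped between the genotypes, with edgeR adjusted p = 0.992 for *Gria3* and 0.996 for *Gria4*.

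*Grin1* (ENSMUSG00000026959, chr2:25291181-25319187, minus strand), the subunit every NMDA receptor contains, was at 327, 362, 307 and 344 CPM in *Neat1*-KO mice and at 321 CPM in each of the 3 *Neat1*-WT libraries. The *Neat1*-WT libraries were almost equal and lay inside the *Neat1*-KO range. Means of 335 ± 23.2 and 321 ± 0.333 CPM gave a log2 fold change of 0.06 (SE 0.07, 95% interval -0.09 to 0.21, edgeR adjusted p = 0.992). *Grin1* overlaps the antisense gene *Grin1os* on the opposite strand over 1307 exonic bases, and 19.5% of the 50-base stretches of its transcript are shared with that gene, so its counts are uncertain where the strand setting of the counting is not given.

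The GluN2 subunits *Grin2a* (ENSMUSG00000059003, chr16:9567898-9995560, minus strand) and *Grin2b* (ENSMUSG00000030209, chr6:135713233-136173511, minus strand) set the kinetics of the receptor and bind glutamate. *Grin2a* was at 38.0, 39.8, 50.3 and 39.9 CPM in the *Neat1*-KO and at 52.6, 44.3 and 48.3 CPM in the *Neat1*-WT libraries. In *Neat1*-KO, 3 of the 4 libraries were below all *Neat1*-WT libraries, and replicate 3 lay among them. The log2 fold change was -0.20 (SE 0.11, 95% interval -0.43 to 0.03, edgeR unadjusted p = 0.0774, adjusted p = 0.992). A share of 14.3% of the 50-base stretches of the *Grin2a* transcript also occurs in *Aoc2* or *Gm7328*. The paper counted uniquely mapped reads, so reads from these stretches may be missing from the *Grin2a* counts.

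*Grin2b* was at 30.1, 43.0, 48.3 and 38.9 CPM in *Neat1*-KO mice against 43.0, 45.7 and 52 CPM in the *Neat1*-WT libraries. It had the lowest estimate of the 10 genes, a log2 fold change of -0.23 (SE 0.13, 95% interval -0.52 to 0.07, edgeR unadjusted p = 0.117, adjusted p = 0.992). *Neat1*-KO replicate 1 was well below the rest, and without it the log2 fold change was -0.12.

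*Grin3a* (ENSMUSG00000039579, chr4:49661611-49845744, minus strand), which encodes the glycine-binding GluN3A subunit, was at 63.5, 71.6, 77.0 and 76.4 CPM in the *Neat1*-KO and at 77.4, 80.6 and 79.3 CPM in the *Neat1*-WT libraries. It was the only one of the 10 genes whose genotypes did not overlap, with every *Neat1*-KO library below every *Neat1*-WT library, although by less than 1 CPM at the nearest point. This was 1 of 10 genes, and 2.57% of all genes tested had the same arrangement. No member had every *Neat1*-KO library above every *Neat1*-WT library, as 2.91% of all genes had. The means were 72.1 ± 6.20 and 79.1 ± 1.65 CPM, and the log2 fold change was -0.13 (SE 0.08, 95% interval -0.31 to 0.05, edgeR unadjusted p = 0.13, adjusted p = 0.992).

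*Slc17a6* (ENSMUSG00000030500, chr7:51622006-51671119, plus strand), the VGLUT2 transporter of spinal excitatory interneurons, was at 212, 188, 217 and 208 CPM in the *Neat1*-KO and at 239, 195 and 209 CPM in the *Neat1*-WT libraries. The log2 fold change was -0.06 (SE 0.08, 95% interval -0.23 to 0.12, edgeR adjusted p = 0.992), and the genotypes overlapped. *Slc17a7* (ENSMUSG00000070570, chr7:45163949-45176142, plus strand), the VGLUT1 transporter, had only 12, 24, 7 and 17 counts in the *Neat1*-KO and 11, 12 and 20 counts in *Neat1*-WT libraries. At this depth its interval was wide, -1.03 to 0.85 around a log2 fold change of -0.09 (edgeR adjusted p = 0.996), and it included changes beyond the call threshold in both directions. *Neat1*-WT replicate 4, where *Slc17a7* was highest at 1.02 CPM, also held the highest sum of sensory ganglion markers, 2.24 CPM. *Slc17a7* was nearly as high in *Neat1*-KO replicate 2, at 0.967 CPM, and no *Neat1*-KO library had a marker sum above 1.11 CPM. The part of these markers in the *Slc17a7* values was not tested.

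**Figure D2:**
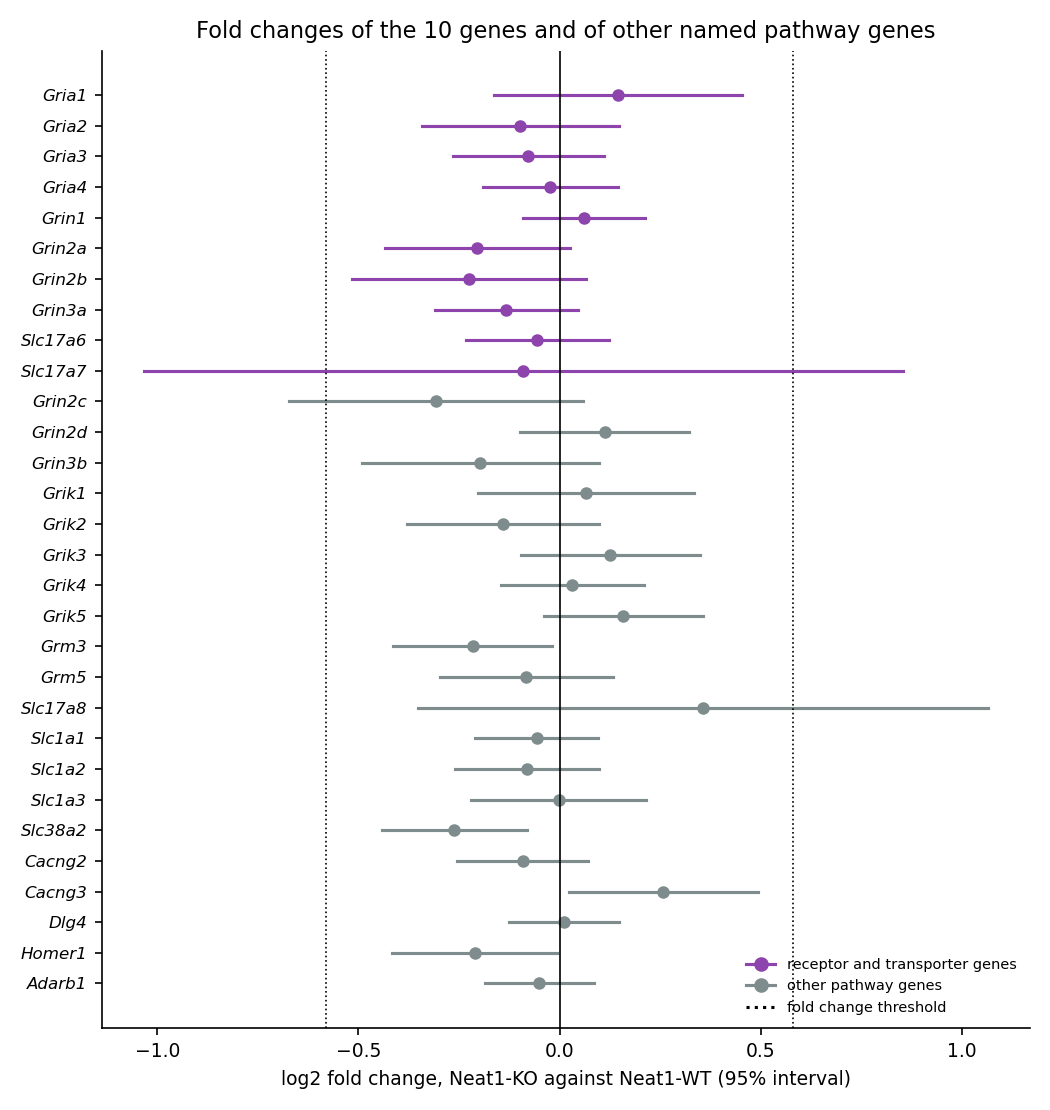
Log2 fold change, *Neat1*-KO against *Neat1*-WT, with its 95% interval from edgeR for the 10 genes (purple) and for other named genes of the glutamate pathway (grey), where dotted lines mark the fold change threshold of 0.58 in either direction. All 10 purple intervals include 0 and the widest is that of *Slc17a7*, from -1.03 to 0.85, while the grey intervals of *Slc38a2*, *Cacng3*, *Grm3* and *Homer1* do not include 0.

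Levels were compared between genes as TPM, in which counts are divided by the exon length of the gene and scaled to 1 common total per library. *Slc17a6* was highest at 132 TPM (mean of 7 libraries), followed by *Grin1* at 116, *Gria4* at 103 and *Gria1* at 78.0 TPM. *Gria3* at 37.3 and *Gria2* at 34.3 TPM were close together, and *Grin3a* followed at 20.9, *Grin2a* at 8.51, *Grin2b* at 5.91 and *Slc17a7* at 0.42 TPM. Each gene was above the next in all 7 libraries except for *Slc17a6* over *Grin1* and *Gria4* over *Gria1*, which held in 6 of 7. The order in the middle depended on the length used. With coding length in place of exon length, *Gria2* was at 67.4 TPM and above *Gria1* at 58.8 and *Gria3* at 46.8 TPM, since *Gria2* has a long untranslated region and 15548 exonic bases in all. *Grin2a* at 12.3 and *Grin2b* at 11.7 TPM were then close, with *Grin2a* above in 4 of 7 libraries. The level of VGLUT1 transcript was near the bottom of the range in both orders.

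*Gria4* made up the largest share of AMPA subunit TPM, with 40.6 ± 5.09% in *Neat1*-KO (SD, n = 4) and 41.3 ± 1.96% in the *Neat1*-WT libraries (SD, n = 3). *Gria1* made up 31.9 ± 5.16% and 29.2 ± 1.99%, *Gria3* 14.4 ± 0.518% and 15.3 ± 0.445%, and *Gria2* 13.1 ± 1.31% and 14.2 ± 0.242%. *Gria3* was below its *Neat1*-WT shares in all 4 *Neat1*-KO libraries, at 13.6 to 14.8% against 14.9 to 15.7%, although with coding length the ranges overlapped at 17.5 to 18.8% and 18.4 to 19.5%. With coding length the *Gria2* share was 25.8 ± 2.15% in the *Neat1*-KO and 27.5 ± 0.456% in the *Neat1*-WT libraries. The *Gria2* share thus depended on the length used by far more than it differed between the genotypes.

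**Figure D3:**
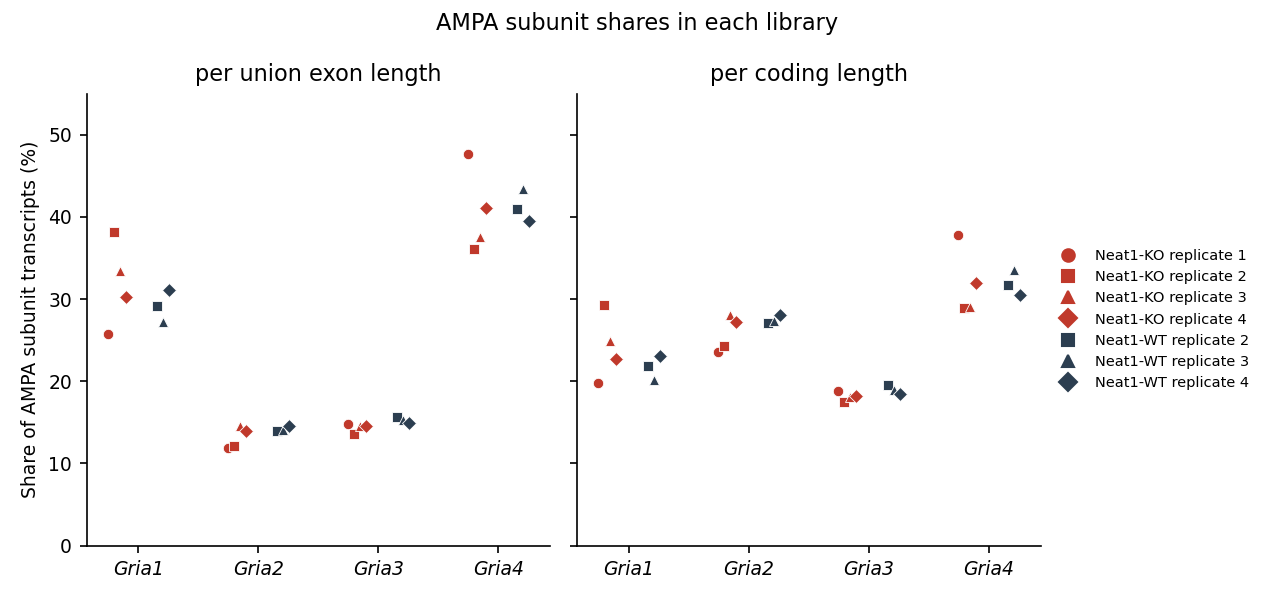
Share of each AMPA subunit gene in the summed TPM of the 4 genes (percent, linear axis from 0), with TPM from union exon length on the left and from coding length on the right, 1 point a library, *Neat1*-KO in red and *Neat1*-WT in dark blue. *Gria2* lies between 11.9 and 14.5% on the left and between 23.6 and 28% on the right, and *Gria1* is highest in *Neat1*-KO replicate 2, at 38.1 and 29.3%.

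Among NMDA subunits, *Grin1* held 57.5 ± 2.16% of the summed TPM in the *Neat1*-KO and 54.2 ± 0.749% in the *Neat1*-WT libraries. With exon length every *Neat1*-KO library was above every *Neat1*-WT library for this share, at 55.3 to 60.2% against 53.7 to 55.1%, and with coding length the ranges overlapped, at 61.4 to 66.2% against 61.4 to 61.6%. *Grin2a* held 3.92 ± 0.666% and 4.42 ± 0.381%, *Grin2b* 2.69 ± 0.56% and 3.09 ± 0.343%, and *Grin3a* 9.81 ± 1.11% and 10.5 ± 0.27%. *Grin2c*, *Grin2d* and *Grin3b* took the rest.

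Of 10 ratios, 9 set receptor subunits or the editing enzyme against each other and 1 set the vesicular transporters against each other, and all were compared with an exact permutation test over all 35 arrangements of the libraries into 4 and 3, two-sided, with p-values adjusted over the 10 ratios. The smallest adjusted p was 0.476. The smallest exact p that this design can give is 0.0286, and 1 ratio alone that separated the genotypes would have an adjusted p of 0.286, so a single ratio could not pass after adjustment and the p-values do not show that the ratios were alike. The intervals give the sizes of difference that these libraries allow. A ratio within a library does not depend on how libraries were scaled, but it can move with the trend on exon length described below.

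The ratio of *Gria2* to the other AMPA subunits is one of bulk transcripts and does not measure which channels contain GluA2. The level of the ratios with *Gria2* depended on the length used. Over the 7 libraries *Gria1* to *Gria2* averaged 2.28 with exon length and 0.876 with coding length. *Gria4* to *Gria2* averaged 3.04 and 1.21, and *Gria2* to the other AMPA subunits 0.157 and 0.361. With exon length, *Gria2* to the other AMPA subunits was 0.134, 0.138, 0.169 and 0.162 in *Neat1*-KO mice and 0.163, 0.164 and 0.169 in the *Neat1*-WT libraries. Replicates 1, 2 and, narrowly, 4 of *Neat1*-KO were below every *Neat1*-WT value, and replicate 3 equalled the highest. The log2 difference was -0.14 (95% interval -0.51 to 0.26, exact permutation p = 0.286, adjusted p = 0.714). *Gria1* to *Gria2* was 2.18, 3.14, 2.31 and 2.17 against 2.09, 1.92 and 2.15, with every *Neat1*-KO value above every *Neat1*-WT value and replicate 2 well above the rest. Its log2 difference of 0.24 had a 95% interval of -0.13 to 1.11 (exact permutation p = 0.114, adjusted p = 0.476). Without *Neat1*-KO replicate 2 the difference was 0.11, with an exact permutation p of 0.1, the smallest that 3 against 3 can give. With all 7 libraries the exact p is above the smallest possible value because other arrangements of the libraries gave as large a difference of means.

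*Gria3* to *Gria2* and *Gria4* to *Gria2* differed by 0.03 (95% interval -0.27 to 0.45, exact permutation p = 0.771) and by 0.09 (95% interval -0.50 to 0.97, exact permutation p = 0.8) on the log2 scale. *Gria4* to *Gria2* reached 4.01 in *Neat1*-KO replicate 1 and lay between 2.60 and 3.07 in the other 6 libraries. *Adarb1*, the editing enzyme of the Q/R site, to *Gria2* was 3.60, 3.04, 2.24 and 2.71 in the *Neat1*-KO and 2.68, 2.87 and 2.66 in the *Neat1*-WT libraries. The log2 difference was 0.06 (95% interval -0.76 to 0.84, exact permutation p = 0.657), and the *Neat1*-KO values spread far more widely than the *Neat1*-WT values.

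Among NMDA ratios, *Grin2a* and *Grin2b* to *Grin1* was 0.0986, 0.106, 0.150 and 0.107 in *Neat1*-KO against 0.141, 0.130 and 0.144 in the *Neat1*-WT libraries. In *Neat1*-KO mice, 3 values were below all *Neat1*-WT values and replicate 3 was above them, and the log2 difference was -0.28 (95% interval -0.76 to 0.65, exact permutation p = 0.143, adjusted p = 0.476). *Grin3a* to *Grin1* showed a similar arrangement, at 0.153, 0.156, 0.198 and 0.175 against 0.191, 0.198 and 0.195. Its log2 difference was -0.19 (95% interval -0.54 to 0.32, exact permutation p = 0.143, adjusted p = 0.476). *Grin2a* to *Grin2b*, the subunit pair that shifts during development, differed by 0.03 (95% interval -0.41 to 0.63, exact permutation test, adjusted p = 0.921). These 3 ratios hold *Grin1* or *Grin2a*, whose counts are uncertain as described above.

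The summed AMPA subunits to *Grin1* were 2, 1.98, 2.59 and 2.06 in the *Neat1*-KO and 2.38, 2.08 and 2.21 in the *Neat1*-WT libraries, a log2 difference of -0.05 (95% interval -0.32 to 0.59, exact permutation p = 0.657). *Slc17a6* to *Slc17a7* ran from 194 to 666 in the *Neat1*-KO and from 205 to 478 in the *Neat1*-WT libraries. Its spread was set by the few counts of *Slc17a7*, and the log2 difference was 0.09 (95% interval -1.84 to 2.30, exact permutation p = 0.943).

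**Figure D4:**
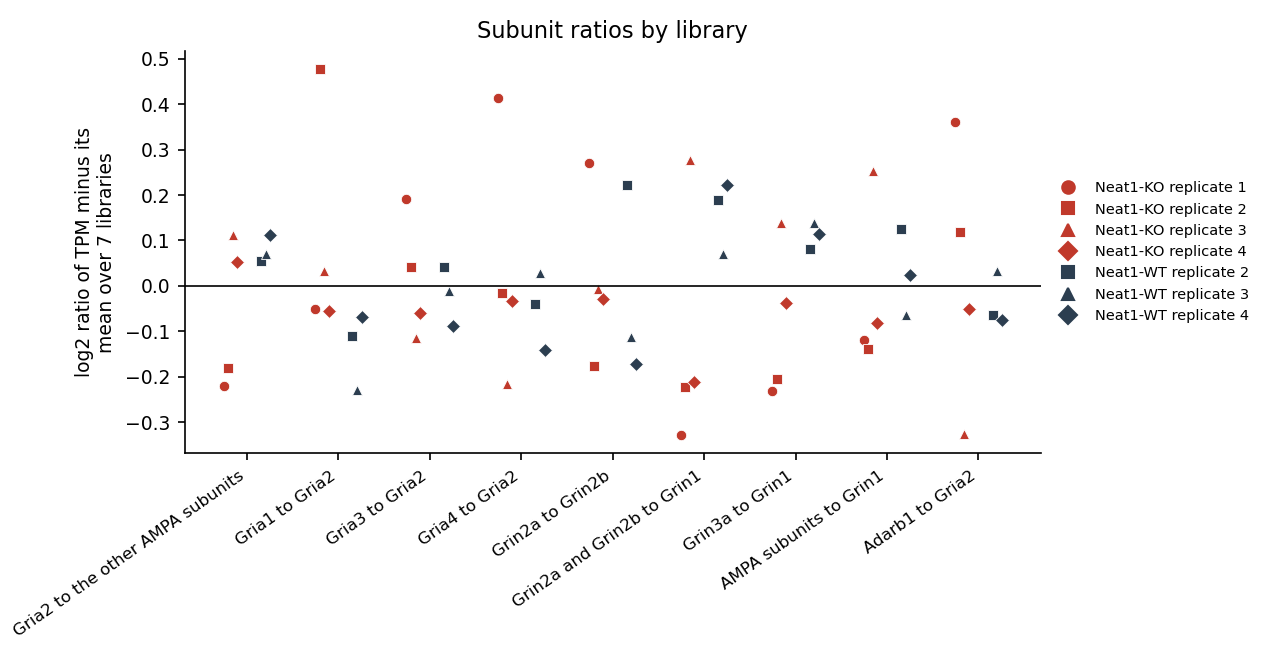
Log2 subunit ratio of TPM in each library minus its mean over the 7 libraries, for 9 of the 10 ratios (*Slc17a6* to *Slc17a7*, with its far wider spread, is left out), with *Neat1*-KO in red, *Neat1*-WT in dark blue and the replicate number as marker shape. *Neat1*-KO libraries spread over a wider range than *Neat1*-WT libraries for most ratios, and replicate 2 is highest for *Gria1* to *Gria2*, 0.48 above that mean.

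*Neat1*-KO replicate 1 held the lowest value of 6 of the 10 genes (60%), against 18.3% of all genes tested. Its counts also varied with transcript length, since genes with under 2000 exonic bases were at a median of 0.11 above the mean of the 7 libraries on the log2 scale (4232 genes) and genes with 10000 or more were at -0.14 (1473 genes). Other libraries had the opposite trend, with *Neat1*-KO replicate 3 at -0.058 and 0.090 and *Neat1*-WT replicate 4 at -0.059 and 0.088 in these classes. *Grin2b*, with 24842 exonic bases, and *Grin2a*, with 17933, are among the longest genes measured, and *Gria2* and *Grin3a* also exceed 10000 bases. *Gria1*, with 6043, and *Gria3*, with 9859, do not, yet were also lowest in *Neat1*-KO replicate 1, *Gria1* at -0.365. A smooth trend on exon length was then removed from each library. The median deviation of the 9 genes other than *Slc17a7* went from -0.22 to -0.06 in *Neat1*-KO replicate 1. In *Neat1*-KO replicate 2 it went from -0.115 to -0.105. The log2 fold change of *Gria1* was 0.145 before this step and 0.143 after it. After this step 8 of the 10 genes still had a lower estimate and 0 were called, with -0.19 for *Grin2b* (SE 0.09, edgeR unadjusted p = 0.0611) and -0.18 for *Grin2a* (SE 0.09, edgeR unadjusted p = 0.062). The ratios moved as well. *Gria1* to *Gria2* then differed by 0.207 on the log2 scale (exact permutation p = 0.286), against 0.237 before (p = 0.114). *Gria2* to the other AMPA subunits differed by -0.112 (exact permutation p = 0.143), against -0.139 before (p = 0.286). The smallest adjusted p of the ratios was 0.476, as before. The trend removal was chosen after seeing the data.

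**Figure D5:**
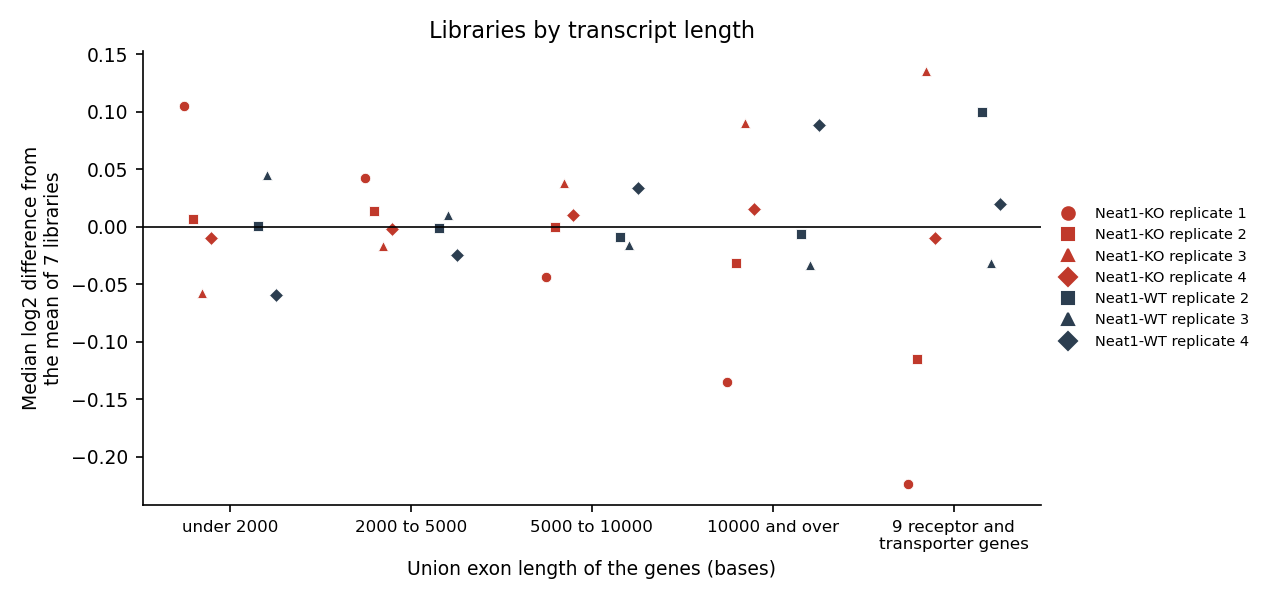
Median difference of log2 CPM from the mean of the 7 libraries, by union exon length of the genes (bases) in 4 classes and, at the right, for the 9 genes other than *Slc17a7*, 1 point a library, *Neat1*-KO in red and *Neat1*-WT in dark blue. *Neat1*-KO replicate 1 falls from 0.11 in the shortest class to -0.14 in the longest and lies at -0.22 for the 9 genes. *Neat1*-KO replicate 3 and *Neat1*-WT replicate 4 rise instead, to 0.090 and 0.088 in the longest class.

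Of 64 other genes of the glutamate system in 6 lists, 63 were tested, since *Grm6* had at most 3 counts in every library. None was called by edgeR, 31 had a higher and 32 a lower estimate, the median log2 fold change was 0.00, and 4 had an unadjusted p under 0.05, as 4.64% of all genes tested had. Among the 63, 5 did not overlap between the genotypes, with *Slc38a2*, *Grid1* and *Homer2* lower and *Cacng3* and *Shisa6* higher in *Neat1*-KO mice. Over all genes tested, 2.57% had every *Neat1*-KO library below and 2.91% above every *Neat1*-WT library, so both counts are near the background. *Grid1*, *Homer2* and *Shisa6* are named after their values were seen.

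The 4 genes were the neutral amino acid transporter *Slc38a2*, which carries glutamine, the AMPA receptor auxiliary subunit *Cacng3*, the metabotropic receptor *Grm3* and the scaffold gene *Homer1*. *Slc38a2* was at 173, 186, 195 and 158 CPM in the *Neat1*-KO and at 230, 209 and 202 CPM in the *Neat1*-WT libraries, a log2 fold change of -0.26 (SE 0.08, edgeR unadjusted p = 0.00786, adjusted p = 0.914). *Cacng3* was at 16.6 ± 1.49 against 13.9 ± 0.780 CPM, with an unadjusted edgeR p of 0.0337. *Grm3* was at 28.9 ± 1.77 against 33.6 ± 3.01 CPM and *Homer1* at 22.8 ± 2.09 against 26.3 ± 0.924 CPM, with edgeR unadjusted p = 0.0347 and 0.0448. Each of the 4 had an adjusted p of at least 0.914.

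By role, the remaining NMDA, kainate and delta subunits had 5 of 10 higher and 5 lower estimates. *Grin2c* was at 25.9 ± 6 and 32.0 ± 5.07 CPM (log2 fold change -0.31, SE 0.17), *Grin2d* at 43.8 ± 4.65 and 40.5 ± 2.98 CPM and *Grin3b* at 13.0 ± 2.33 and 14.9 ± 0.866 CPM. The kainate subunits *Grik1* to *Grik5* had log2 fold changes between -0.14 and 0.16. Metabotropic receptors had 2 of 7 higher and 5 lower, with *Grm5* at -0.08 on the log2 scale.

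Of the glutamate transport and metabolism genes, 6 of 11 were higher and 5 lower. The astrocytic transporter *Slc1a2*, which clears most synaptic glutamate, was at 2240 ± 180 CPM in the *Neat1*-KO and 2370 ± 223 CPM in the *Neat1*-WT libraries (log2 fold change -0.08), and *Slc1a3* was at 129 ± 13.9 and 129 ± 15.1 CPM. The neuronal transporter *Slc1a1* had a log2 fold change of -0.06, and the third vesicular transporter *Slc17a8* was at 1.62 ± 0.538 and 1.27 ± 0.383 CPM. Auxiliary subunits had 7 of 14 in each direction, with *Cacng2* (stargazin) at 137 ± 5.93 and 146 ± 11.7 CPM. The scaffolds and kinases had 10 of 18 higher and 8 lower, with *Dlg4* (PSD-95) at 301 ± 9.82 and 299 ± 10.9 CPM. Of the 3 editing enzymes, 1 was higher and 2 lower, and *Adarb1* was at 311 ± 10.8 and 322 ± 9.48 CPM.

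Bulk tissue mixes many cell types, so the cell type markers of the tissue are given beside these values. Of 5 motor neuron markers, all 5 had lower estimates, 0 were called and 2 had an unadjusted p under 0.05, and their summed level was 192 to 255 CPM in the *Neat1*-KO and 260 to 316 CPM in the *Neat1*-WT libraries, without overlap. No single one of the 5 was without overlap, and *Slc5a7* and *Slc18a3* made up most of the sum. *Slc18a3*, the vesicular acetylcholine transporter, had a log2 fold change of -0.30 (SE 0.09, edgeR unadjusted p = 0.00533, adjusted p = 0.84), *Slc5a7*, the choline transporter, -0.40 (unadjusted p = 0.0127) and *Chat*, which makes acetylcholine, -0.09 (unadjusted p = 0.359). Of 5 inhibitory interneuron markers, all 5 had higher estimates, 0 were called and 2 had an unadjusted p under 0.05, and their summed level was 975 to 1060 CPM against 905 to 927 CPM, also without overlap, and *Gad1* and *Slc6a5* were without overlap singly. An unadjusted p under 0.05 was seen in 4.64% of all genes tested. The 7 pan-neuronal markers had 2 higher and 5 lower estimates, at 4210 to 4740 against 4390 to 5030 CPM. Estimates were lower for all 6 oligodendrocyte markers and higher for all 6 microglia markers, 4 of 6 astrocyte markers and 3 of 5 excitatory interneuron markers, with 0 called in each list and summed levels that overlapped between the genotypes. The oligodendrocyte marker *Mobp* was without overlap singly, at 3390 to 3590 CPM in the *Neat1*-KO and 3920 to 4030 CPM in the *Neat1*-WT libraries (edgeR unadjusted p = 0.0122). No defining motor or inhibitory marker was at 0, and their part in the values of the 10 genes was not tested.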

How the data were processed

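Total RNA of 7 cervical spinal cords, 1 library a mouse, was poly(A)-selected, made into directional libraries and sequenced paired-end. The deposited values are raw counts per gene that the authors made, per the labels, with FastQC 0.11.7, Trimmomatic 0.38, HISAT2 2.1.0, SAMtools 1.9 and featureCounts 1.6.3 on mm10. The annotation release and strand setting of the counting are not given in the sources used here. GENCODE M21 named 55227 of 55487 genes, and the other 260 held 0.00446% of counts.

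Counts were tested with edgeR 4.0.16 in R 4.3.3 (filterByExpr, TMM, quasi-likelihood F-test, Benjamini-Hochberg over 18449 genes), which was tested on simulated data. Thresholds followed the study. CPM used TMM library sizes, TPM union exon length. P-values measure only the spread between these libraries. With 1 library a mouse, differences between mice and between library preparations cannot be told apart. Permutation tests were exact over 35 arrangements, and ratio intervals (95%) inverted that test. Alternatives were DESeq2 1.42.0, limma 3.58.1 (voom), other scaling factors, filters and lengths, *Xist* as a covariate, a replicate block, leaving out each library and removing a length trend. The members and lists were chosen with earlier results of these data known. Named genes were *Neat1*, the 10 members, 17 fixed pathway genes (1 of them is not reported here) and any pathway gene with an unadjusted p under 0.05.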

Additional observations from a re-analysis of the deposited data

Results flagged for a closer look

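Among 42 results looked at in the 4 *Neat1*-KO libraries, 4 had a highest or lowest library that stood apart by Dixon's test at the 95% level, where chance gives about 1 in 20, or 2.1. *Grin2a* CPM was highest in replicate 3, at 50.3 against 38.0 to 39.9, with a gap of 0.841 of the range. *Grik1* CPM was lowest in replicate 1, at 9.35 against 10.5 to 10.8, with a gap of 0.833 of the range. The log2 ratio of *Gria1* to *Gria2* was highest in replicate 2, at 3.14 against 2.17 to 2.31 as a ratio, with a gap of 0.835 of the range. The log2 ratio of the AMPA subunits to *Grin1* was highest in replicate 3, at 2.59 against 1.98 to 2.06 as a ratio, with a gap of 0.854 of the range. The *Neat1*-WT group of 3 was too small for this test.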

How the results depend on the processing

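No member and no other pathway gene was called under any alternative. The smallest adjusted p of a member was 0.459 in edgeR, without *Neat1*-KO replicate 3, where 3 members had an unadjusted p under 0.05 against 0 in the main fit. Without a filter on low counts, 2 members had an edgeR unadjusted p under 0.05. With the replicate block, without *Neat1*-KO replicate 1 and without *Neat1*-WT replicate 3, the number was 1 each. It was 0 in the remaining alternatives. Directions of the members' estimates held in 163 of 170 refits. With *Xist* as a covariate, which rests on 0 to 4 counts a library, *Gria2* was at 0.039 and *Slc17a6* at 0.009. With 1 library left out, log2 fold changes ran from -0.063 to 0.028 for *Gria4*, -0.121 to 0.029 for *Slc17a6* and -0.365 to 0.281 for *Slc17a7*, and log2 ratio differences from -0.025 to 0.077 for *Gria3* to *Gria2*, -0.038 to 0.171 for *Gria4* to *Gria2*, -0.050 to 0.156 for *Grin2a* to *Grin2b*, -0.238 to 0.373 for *Slc17a6* to *Slc17a7* and -0.050 to 0.178 for *Adarb1* to *Gria2*. The labels do not say whether libraries that share a replicate number are paired. Correlations of deviations were -0.202, -0.122 and -0.0147 for shared numbers 2 to 4 and -0.214 to 0.166 for unlike numbers. They gave no sign of pairing but cannot exclude it. The fit with the replicate block called 39 genes against 6 and 0 members. With the replicate block, over the libraries that share a number, the ratio differences were -0.025 for *Gria3* to *Gria2*, -0.038 for *Gria4* to *Gria2*, -0.050 for *Grin2a* to *Grin2b* and -0.050 for *Adarb1* to *Gria2*. With coding length *Gria1*, *Gria2* and *Gria3* ranked 5, 4 and 6 by level. Genes called over the whole table numbered 124 without a filter, 27 by DESeq2, 31 without *Neat1*-KO replicate 1, 9 without *Neat1*-KO replicate 3, and 3 and 11 on leaving out *Neat1*-WT replicates 3 and 4. The causes were not tested. Leaving out a library cannot take an exact p under 0.1 for 3 against 3 or 0.0667 for 4 against 2. Without *Neat1*-KO replicate 3, some ratios reached 0.1 (exact permutation test, adjusted p = 0.2), and the rest had an exact p of at least 0.2. The log2 differences at 0.1 were -0.196 for *Gria2* to the other AMPA subunits and 0.260 for *Gria1* to *Gria2*. To *Grin1*, they were -0.415 for *Grin2a* and *Grin2b*, -0.269 for *Grin3a* and -0.141 for the AMPA subunits.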
